A study of Mus musculus with 43 samples.

Results

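The genes described here take part in the handling of water, potassium, sodium, chloride and bicarbonate by glia. They are Aqp4, Kcnj10, Kcnj16, Atp1b2, Slc4a4, Mlc1, Slc12a2 and Car2, 8 of the 55416 genes counted, chosen by name and read in each of 43 RNA-seq libraries. The libraries came from the cerebral cortex of 12 mice, 3 months old, in 6 littermate pairs of 1 Rag2-/- mouse and 1 immunocompetent mouse. Microglia, oligodendrocyte precursor cells (OPCs), oligodendrocytes and astrocytes were immunopanned in that order from the cell suspension of each mouse. Immunopanned cells are caught on plates coated with antibodies that bind cells of a given type. The Rag2-/- mice carried the B6.Cg-Rag2tm1.1Cgn/J allele, crossed with C57BL/6J, from birth and in every cell, and so lacked mature T and B lymphocytes throughout development. Controls were Rag2+/- in pairs 1, 2, 3 and 5 and Rag2+/+ in pairs 4 and 6, and both are called controls here. All mice were bred from heterozygous parents in the same facility and received no other treatment. Astrocytes and microglia had 6 control and 6 Rag2-/- libraries each, OPCs had 6 and 5, and oligodendrocytes had 4 and 4, from pairs 1, 3, 5 and 6. Replicate numbers are those of the pairs. Each group holds both sexes, and the mice of a pair were of the same sex except in pair 6, where the control was male.

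Libraries held 6499417 to 23118497 counts on genes, and mitochondrial genes took 6.75% to 60.1% of them. All libraries of a cell type were sequenced on 1 lane, so a difference between cell types and one between lanes cannot be told apart. Rag2 itself was at 0 in 19 of 22 control libraries and in all 21 Rag2-/- libraries, so it could not check the genotypes in these cells. Each of the 4 marker panels was highest in its own cell type. A panel of 7 astrocyte markers (Aldoc, Slc1a2, Gfap, Slc1a3, Sox9, Gja1 and Glud1) summed to 18592 to 22489 normalized CPM in astrocytes, 2305 to 6125 in OPCs, 1454 to 3746 in oligodendrocytes and 385 to 500 in microglia. A panel of 7 oligodendrocyte markers summed to 25707 to 35094 CPM in oligodendrocytes, 3186 to 6054 in astrocytes and 287 to 1200 in OPCs. Marker genes of one glial type were thus read in the libraries of another. Whether this was RNA of other cells or expression by the cells themselves was not tested. In astrocyte libraries the choroid plexus genes Ttr and Folr1, whose tissue also expresses Slc12a2 and Car2, had at most 3 counts, and all 7 choroid plexus and ependymal markers summed to 1.61 to 11.7 CPM, highest in the pair 3 control. The 7 summed to 3.32 to 15.9 CPM in oligodendrocytes, where Ttr and Folr1 also had at most 3 counts. In OPCs they summed to 8.62 to 21.6 CPM, and Ttr was above 3 counts in at least 1 control. CPM are counts relative to the library total after TMM scaling, whose factors were computed over all 43 libraries and correct for a few genes taking a large share of the reads. Errors are SDs over libraries.

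Active neurons release potassium and produce carbon dioxide, and astrocytes take up both. Kir4.1, encoded by Kcnj10, is the inwardly rectifying channel that sets the potassium conductance and resting potential of glia, and Kir5.1, encoded by Kcnj16, joins it in mixed channels. Atp1b2 encodes the β2 subunit of the sodium-potassium pump, Aqp4 the water channel crowded on astrocyte endfeet around vessels, and Mlc1 an endfoot membrane protein whose loss in people causes a leukodystrophy with swollen white matter. Slc4a4 encodes NBCe1, which carries sodium together with bicarbonate, and Car2 the cytosolic enzyme that converts carbon dioxide to bicarbonate, long used as a marker of oligodendrocytes. Slc12a2 encodes NKCC1, which brings sodium, potassium and chloride into cells and keeps chloride high inside many of them.

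The sequences just upstream of 3 of these genes are shown as examples. All 3 had their highest mean in astrocytes and differed in the other cell types. In control OPCs and oligodendrocytes Slc4a4 was inside the range of astrocyte markers given below, and Kcnj10 was above it. Kcnj16, the partner of Kcnj10, was above that range in OPCs, and in oligodendrocytes it was lower than in OPCs and next to the top of the range. Each is the 250 bases before the annotated start of the Ensembl canonical transcript in GRCm39, read 5′ to 3′ on the strand of the gene, with matches of the searched motifs in capitals. The motifs, searched on both strands, were the TATA box (TATAAA), the CCAAT box (named by its letters), the GC box (GGGCGG), a SOX family site (ACAAAG), its variant (ACAATG) and the palindromic site of NFI factors (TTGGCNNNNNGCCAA). Kcnj10 lies at chr1:172168515-172168764, Kcnj16 at chr11:110858593-110858842 and Slc4a4 at chr5:89034095-89034344, all on the forward strand.
Kcnj10: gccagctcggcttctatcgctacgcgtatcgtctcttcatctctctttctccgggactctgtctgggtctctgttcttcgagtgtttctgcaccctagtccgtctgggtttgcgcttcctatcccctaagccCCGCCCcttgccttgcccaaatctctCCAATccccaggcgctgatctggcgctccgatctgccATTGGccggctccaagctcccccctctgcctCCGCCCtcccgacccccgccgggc
Kcnj16: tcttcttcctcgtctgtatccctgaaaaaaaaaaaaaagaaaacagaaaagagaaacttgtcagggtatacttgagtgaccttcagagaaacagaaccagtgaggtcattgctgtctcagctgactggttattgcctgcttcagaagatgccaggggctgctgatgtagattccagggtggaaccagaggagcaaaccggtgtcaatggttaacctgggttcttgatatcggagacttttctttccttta
Slc4a4: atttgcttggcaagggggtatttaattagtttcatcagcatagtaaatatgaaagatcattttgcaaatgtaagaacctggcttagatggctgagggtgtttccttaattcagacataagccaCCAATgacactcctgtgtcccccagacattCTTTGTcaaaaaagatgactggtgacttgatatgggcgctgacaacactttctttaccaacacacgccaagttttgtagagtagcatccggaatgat
The Kcnj10 stretch held 18 CpG dinucleotides and 62.8% G and C, and 79.7% of the 21260 protein-coding promoters read this way held fewer CpG. The Kcnj16 and Slc4a4 stretches held 3 CpG each, with 44.0% and 40.8% G and C, against medians of 8 CpG and 53.2% over all promoters. CCAAT matched in the Kcnj10 stretch from 92 and 55 bases before the start and in the Slc4a4 stretch from 127 bases before it, and 36.5% of all promoters held a match. GGGCGG matched in the Kcnj10 stretch from 118 and 24 bases before the start, and 36.2% of promoters held it. ACAAAG matched in the Slc4a4 stretch from 97 bases before the start, and 15.9% of promoters held it. The Kcnj16 stretch held none of the motifs. The TATA box, the SOX variant and the NFI site, which 11.9%, 9.41% and 0.0329% of promoters held, matched in none of the 3. A match is a string of letters and not a measured binding site.

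Aqp4, Mlc1, Slc4a4 and Atp1b2 shared a pattern, with astrocytes far above the other 3 cell types. Aqp4 was at 800 ± 98.9 CPM in the 6 control astrocyte libraries (lowest 664, median 798, highest 935). It fell to 59.8 ± 11.9 in the 6 control OPC libraries (38.6 to 71.2), which is 7.48% of the astrocyte mean. Its values in the 4 control oligodendrocyte libraries were 22.1, 19.1, 9.47 and 81.2 CPM in pairs 1, 3, 5 and 6. Control microglia held 1.79 to 8.69 CPM. No astrocyte library overlapped a library of another cell type, while OPCs and oligodendrocytes overlapped. On the log2 scale Aqp4 was higher in control astrocytes by 3.74 (SE 0.42, adjusted p = 2.01e-09) than in OPCs, by 4.57 (SE 0.53, adjusted p = 3.53e-09) than in oligodendrocytes and by 7.64 (SE 0.51, adjusted p = 1.36e-16) than in microglia, in an edgeR quasi-likelihood fit of all libraries with p-values adjusted over 21368 genes.

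Mlc1 had 348 ± 21 CPM in control astrocytes (321, 353 and 370 as lowest, median and highest), the narrowest relative spread of the 8 genes there. OPCs held 32.1 ± 9.27 CPM (17.4 to 41.7), and oligodendrocytes held 11.9, 14.2, 52.8 and 16.7 in pairs 1, 3, 5 and 6. Astrocytes were apart from both, by 3.43 (SE 0.36, adjusted p = 3.65e-10) and 3.91 (SE 0.44, adjusted p = 2.25e-09) on the log2 scale. Slc4a4 was at 879 ± 120 CPM in control astrocytes (699 to 997), at 110 ± 22.4 in OPCs (85.7 to 139) and at 43.5, 39.9, 49.2 and 145 in the oligodendrocytes of pairs 1, 3, 5 and 6. The astrocyte excess of this bicarbonate cotransporter was 3.01 over OPCs (SE 0.28, adjusted p = 2.57e-11) and 3.63 over oligodendrocytes (SE 0.35, adjusted p = 4.27e-11). Both genes were in microglia at under 1% of the control astrocyte mean, 0.643% for Mlc1 and 0.503% for Slc4a4.

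Atp1b2, the pump subunit, kept more of its level outside astrocytes. Control astrocytes held 2230 ± 294 CPM (1741, 2253 and 2555), control OPCs 453 ± 61.7 (366, 441 and 524), and the 4 oligodendrocyte libraries 131, 145, 234 and 385. That is 20.3% of the astrocyte mean in OPCs and 10.0% in oligodendrocytes. Astrocytes exceeded OPCs by 2.29 (SE 0.27, adjusted p = 4.35e-09), and OPCs exceeded oligodendrocytes by 1.01 (SE 0.29, adjusted p = 0.00906), a call lost without the control oligodendrocyte library of pair 1 (0.79, adjusted p = 0.0696) or of pair 3 (0.80, adjusted p = 0.0663). Microglia held 7.62 to 40.7 CPM.

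The low levels of these 4 genes stood beside low levels of astrocyte markers in the same libraries. The 7 astrocyte markers ranged from 6.48% to 24% of their control astrocyte mean in control OPCs, with a median of 11.9%. Aqp4 (7.48%), Mlc1 (9.21%), Slc4a4 (12.5%) and Atp1b2 (20.3%) were inside that range. Its top was Glud1 alone. Atp1b2 was above every other marker, of which Slc1a2, at 14.6%, was the highest. In control oligodendrocytes the markers ranged from 3.24% to 15.6%, and the 4 genes, at 4.12%, 6.86%, 7.91% and 10.0%, were inside it too. The oligodendrocyte library highest in Aqp4, Slc4a4 and Atp1b2, the control of pair 6, was also the highest in the astrocyte panel (3746 CPM) and in 7 neuron markers (3009 CPM). Mlc1 did not follow this, at 16.7 CPM there and 52.8 in the control of pair 5, whose astrocyte panel was at 2255 CPM. Aqp4 did not follow the panel in that pair 5 library either, where it had its lowest oligodendrocyte value, 9.47 CPM. The panel was lower in the controls of pairs 1 (1679 CPM) and 3 (1454 CPM). Whether any of the level in OPCs and oligodendrocytes came from astrocyte RNA, and how much, was not tested.

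**Figure D1:**
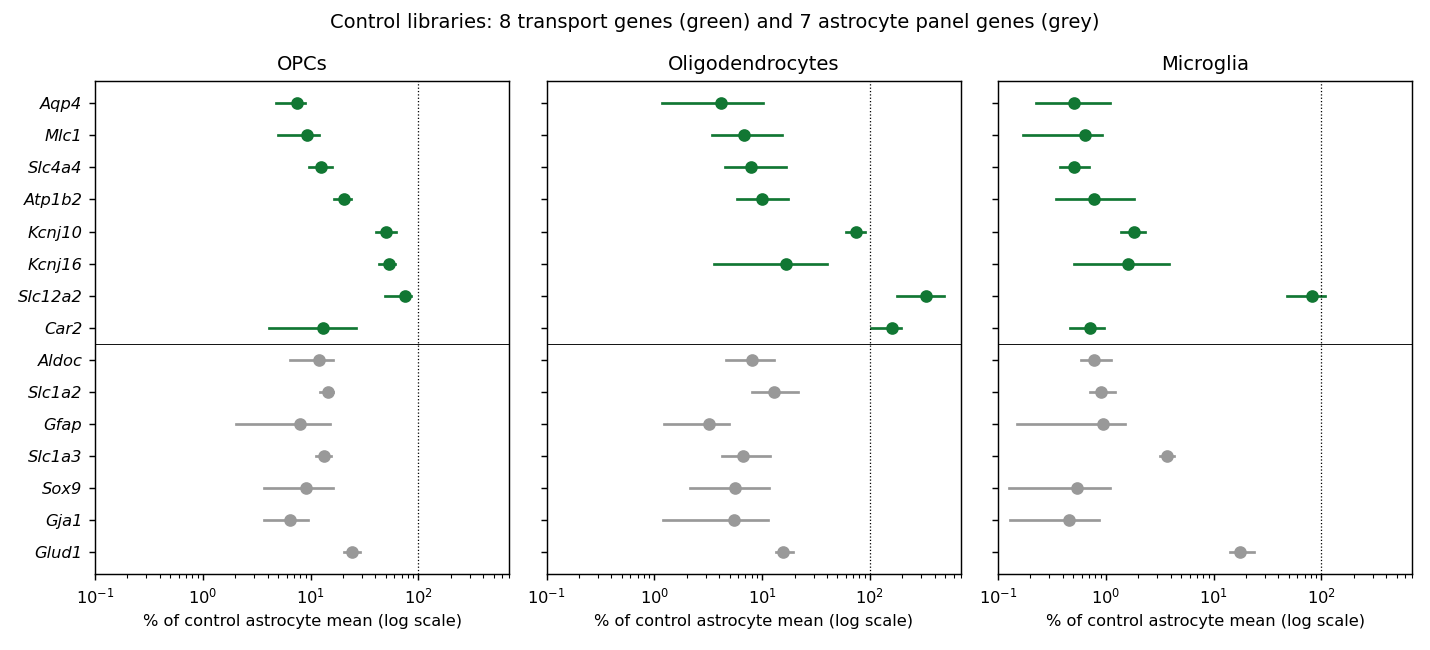
Level of each gene in control OPCs, oligodendrocytes and microglia as a percent of its control astrocyte mean, on a log axis, with the 7 astrocyte markers below it and bars from the lowest to the highest library. Aqp4, Mlc1, Slc4a4 and Atp1b2 sit inside the marker range in OPCs and oligodendrocytes, while Kcnj10 (50.3% and 74.8%) and Slc12a2 (75.6% and 331%) sit above it. Kcnj16 (53.2% and 16.7%) is above it in OPCs and next to its top in oligodendrocytes. Car2 (12.9% and 160%) is inside it in OPCs and above it in oligodendrocytes. In OPCs Glud1 is the only marker above Atp1b2.

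The potassium channel pair was spread over more cell types, and its members parted in oligodendrocytes. Kcnj10 was at 423 ± 38.4 CPM in control astrocytes (388 to 493) and at 213 ± 29.4 in control OPCs (170 to 260). In the control oligodendrocytes of pairs 1, 3, 5 and 6 it was at 378, 355, 253 and 279. The means of OPCs and oligodendrocytes are 50.3% and 74.8% of the astrocyte mean, above the highest astrocyte marker in each (24% and 15.6%). With total gene counts as the scale they are 65.7% and 47.3%, in the opposite order. Microglia had 5.83 to 9.85 CPM. Astrocytes exceeded OPCs by 0.99 (SE 0.15, adjusted p = 6.51e-07), without overlap in either genotype. The excess over oligodendrocytes was 0.42 (SE 0.16, adjusted p = 0.0395) in controls and 0.44 (SE 0.16, adjusted p = 0.0301) in Rag2-/- mice. In controls it was lost without the astrocyte library of pair 1, 2 or 5 (adjusted p = 0.0508, 0.0840 and 0.0575) or the oligodendrocyte library of pair 5 (adjusted p = 0.0863). In Rag2-/- mice it was lost without the oligodendrocyte library of pair 6 (adjusted p = 0.0729). With each mouse as a replicate block the control value was 0.45 and its adjusted p 0.0513.

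Whether OPCs or oligodendrocytes held more Kcnj10 turned on the scaling. With TMM, OPCs were lower by 0.57 on the log2 scale (fitted value -0.57, SE 0.16, adjusted p = 0.00646). With total gene counts as the scale they were higher by 0.48 (adjusted p = 0.0397), and without mitochondrial genes in the total the value was -0.15 (adjusted p = 0.535). The median over all 21368 genes in this contrast moved from 0.17 with TMM to 1.21 with total counts, and mitochondrial genes took 45.8% to 60.1% of counts in oligodendrocytes against 22.4% to 36.7% in OPCs. Relative to those medians Kcnj10 was lower in OPCs under both scales. In Rag2-/- mice the TMM value was -0.52 (SE 0.17, adjusted p = 0.0176) and 0.50 with total gene counts (adjusted p = 0.0349). The call was lost with each mouse as a block (-0.47, adjusted p = 0.0663), with no filter (-0.46, adjusted p = 0.109) and without mitochondrial genes in the total (-0.12, adjusted p = 0.637). It was also lost without the Rag2-/- oligodendrocyte library of pair 1 (adjusted p = 0.0536) or 5 (adjusted p = 0.0561) or the Rag2-/- OPC library of pair 3 (adjusted p = 0.0616) or 6 (adjusted p = 0.0505).

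Kcnj16 was at 140 ± 25.9 CPM in control astrocytes (101 to 177) and at 74.7 ± 9.64 in control OPCs (60.6 to 85.0), 53.2% of the astrocyte mean. Control oligodendrocytes held 19, 13.5, 56.2 and 5.05 CPM in pairs 1, 3, 5 and 6, and microglia 0.717 to 5.45. Control astrocytes and OPCs did not overlap, but their difference of 0.91 (SE 0.39) had an adjusted p of 0.0741. It passed with DESeq2 (adjusted p = 0.0495), with no filter on low counts (adjusted p = 9.04e-05), and without any 1 of 4 oligodendrocyte libraries, the controls of pairs 5 (0.0340) and 6 (0.0361) and the Rag2-/- libraries of pairs 3 (0.0453) and 5 (0.0206). OPCs exceeded oligodendrocytes by 1.76 (SE 0.47, adjusted p = 0.00455), opposite in sign to Kcnj10 under TMM. The oligodendrocyte mean of Kcnj16 was 16.7% of the astrocyte mean, next to the highest astrocyte marker there (15.6%), and the part of astrocyte RNA in it was not tested.

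The ratio of Kcnj10 to Kcnj16 was taken within each library after dividing both by exonic length, which makes the genes comparable. It was 3.16 ± 0.770 in control astrocytes (2.30 to 4.23) and 2.92 ± 0.485 in control OPCs (2.03 to 3.35). In control oligodendrocytes it was 26.8 ± 21.5, from 4.55 in pair 5 to 55.9 in pair 6. Rag2-/- libraries gave 3.15 ± 0.651, 2.67 and 27.2 ± 14.8 for the same cell types. Every oligodendrocyte library was thus above every astrocyte and OPC library in this ratio, with a wide range that followed the scatter of Kcnj16.

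Slc12a2 and Car2 reached their highest levels in oligodendrocytes. Slc12a2 was at 508, 393, 188 and 291 CPM in the control oligodendrocytes of pairs 1, 3, 5 and 6, a mean of 345 ± 137. Astrocytes (104.4 ± 30.8), OPCs (78.9 ± 13.9) and microglia (85.9 ± 23.2) overlapped one another in both genotypes and lay below every oligodendrocyte library. The oligodendrocyte excess over astrocytes was 1.73 (fitted astrocyte minus oligodendrocyte value -1.73, SE 0.24, adjusted p = 1.72e-07), over OPCs 2.13 (fitted value -2.13, SE 0.24, adjusted p = 3.33e-09) and over microglia 2.01 (SE 0.24, adjusted p = 1.97e-09). None of the 3 control contrasts among the other cell types passed, with adjusted p from 0.16 to 0.647. With total gene counts as the scale the oligodendrocyte excess over astrocytes was smaller but still called (-1.09, adjusted p = 0.00072). This was the only one of the 8 genes for which microglia, at 82.2% of the astrocyte mean, were near the astrocyte level.

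Car2, the carbonic anhydrase, was at 542, 470, 478 and 284 CPM in the control oligodendrocytes of pairs 1, 3, 5 and 6, and at 278 ± 47.4 in control astrocytes (211, 302 and 315). The pair 6 oligodendrocyte library lay inside the astrocyte range, and the difference did not pass (fitted value -0.68, SE 0.35, adjusted p = 0.12). It passed with no filter on low counts (-0.58, adjusted p = 0.0272) and was -0.04 with total gene counts. Astrocyte libraries held 3186 to 6054 CPM of the oligodendrocyte panel, whose level in oligodendrocytes was 25707 to 35094, and the share of astrocyte Car2 from that RNA was not tested. OPCs stood far below both, at 35.9 ± 26.1 CPM (11.5 to 73.2), by 3.65 against oligodendrocytes (fitted value -3.65, SE 0.36, adjusted p = 1.91e-10) and by 2.97 against astrocytes (SE 0.34, adjusted p = 2.76e-09). The OPC mean was 12.9% of the astrocyte mean, inside the range of the astrocyte markers in OPCs. Microglia held 13 to 31 counts of Car2 in controls, 1.97 ± 0.559 CPM. In control microglia the 7 genes other than Slc12a2 were at 0.503% to 1.84% of their astrocyte means, where the astrocyte markers ranged from 0.455% to 17.6%. Glud1 alone made the top of that range, followed by Slc1a3 at 3.69%, and the remaining markers reached at most 0.944%. Kcnj10 (1.84%) and Kcnj16 (1.59%) were above those remaining markers.

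**Figure D2:**
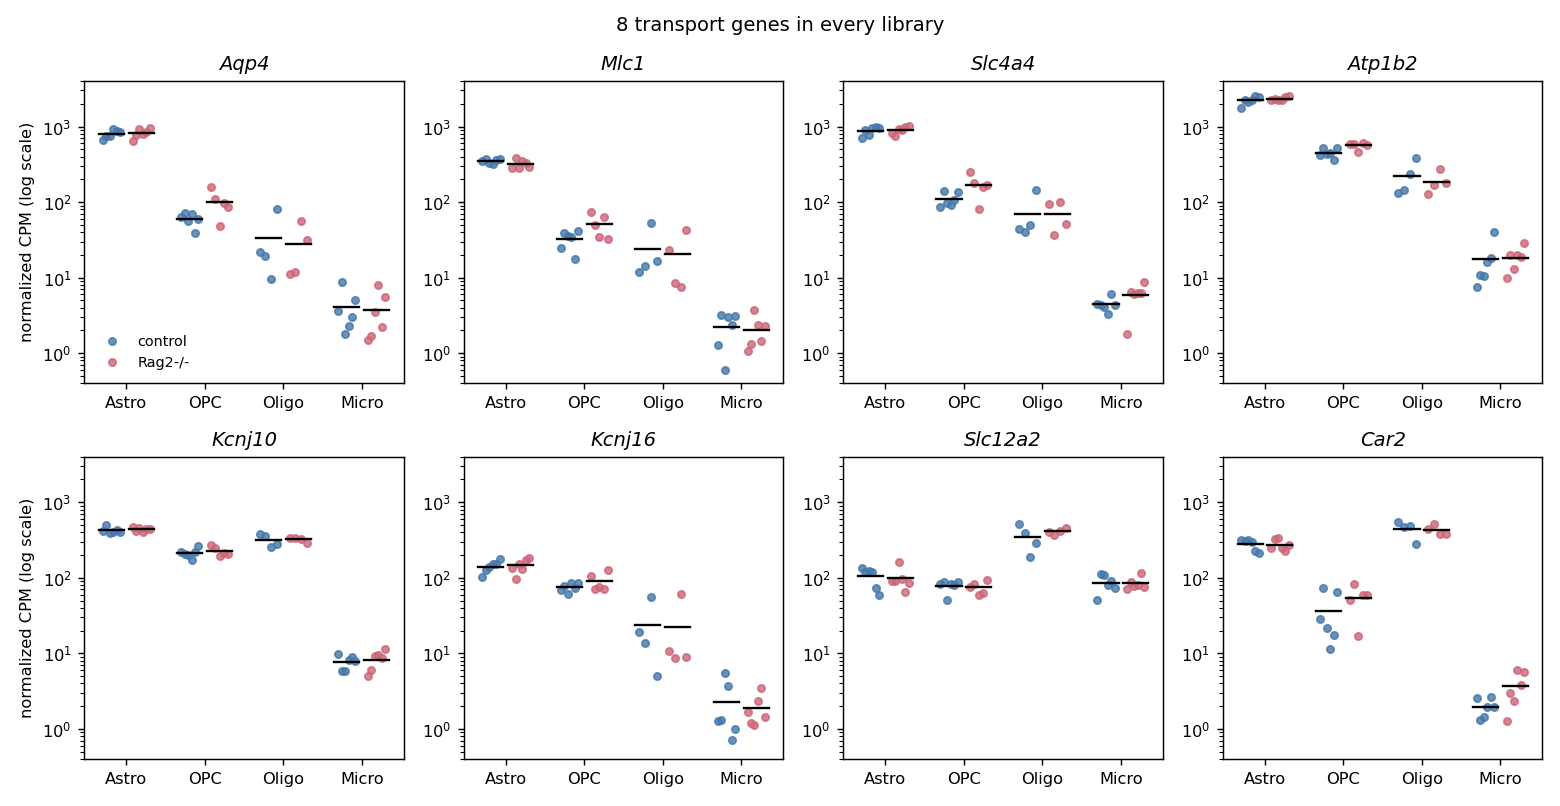
Normalized CPM of each of the 8 genes in every library, on a log axis, by cell type and genotype, with 1 point a library and a bar at the group mean. Aqp4, Mlc1, Slc4a4 and Atp1b2 are highest in astrocytes, Slc12a2 is highest in oligodendrocytes, and control and Rag2-/- points overlap in every cell type.

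Counted over the 8 genes, most cell type contrasts passed, in a table where large shares of all genes did so too. Astrocytes exceeded OPCs for 6 of 8 genes in controls and 6 in Rag2-/- mice, where 29.9% and 25.3% of all 21368 genes differed in either direction. Between astrocytes and oligodendrocytes 7 of 8 differed in each genotype, 6 higher in astrocytes and Slc12a2 lower, against 36.2% and 39.3% of all genes. Astrocytes exceeded microglia for 7 of 8, all but Slc12a2, in each genotype, against 58.7% and 58.6%. OPCs exceeded microglia for the same 7, against 58.2% and 57.3%, and oligodendrocytes exceeded microglia for 8 of 8, against 56.4% and 57.6%. OPCs and oligodendrocytes differed for 5 genes in controls, 2 higher and 3 lower in OPCs, against 26.5% of all genes. In Rag2-/- mice 8 differed, 5 higher and 3 lower in OPCs, against 27.8%. The added genes were Aqp4 (1.89, adjusted p = 0.00243), Mlc1 (1.36, adjusted p = 0.00987) and Slc4a4 (1.28, adjusted p = 0.00212). In controls these had 0.83, 0.48 and 0.62, of which Aqp4 and Slc4a4 passed without the control oligodendrocyte library of pair 6 (1.82, adjusted p = 0.00295, and 1.32, adjusted p = 0.000829) and Mlc1 without that of pair 5 (1.16, adjusted p = 0.0361). In Rag2-/- mice the Mlc1 call was lost without the oligodendrocyte library of pair 3 (adjusted p = 0.0542) or 5 (adjusted p = 0.0507). The median control difference of the 8 genes was 2.63 for astrocytes over OPCs, 2.99 over oligodendrocytes and 7.07 over microglia, where the medians of all genes were -0.14, -0.03 and 0.08. In bulk libraries such as these, fewer cells of a type and less RNA per cell cannot be told apart.

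Divided by exonic length, the levels can be ordered within a cell type. In control astrocytes Atp1b2 led at 332 CPM per kilobase, followed by Aqp4 (122), Mlc1 (84.8), Kcnj10 (78.0), Slc4a4 (64.2), Car2 (63.1), Kcnj16 (25.6) and Slc12a2 (8.22). Neighbours from Mlc1 to Car2 were close, and using the longest transcript as the length put Slc4a4 before Kcnj10. In control OPCs Atp1b2 (67.5) was followed by Kcnj10 (39.2) and Kcnj16 (13.6). Control oligodendrocytes were led by Car2 (101), then Kcnj10 (58.4), Atp1b2 (33.3) and Slc12a2 (27.2). Control microglia had Slc12a2 (6.76) first and Atp1b2 (2.60) and Kcnj10 (1.43) next. Slc12a2 was therefore last per kilobase in astrocytes and first in microglia at nearly equal levels of its own, since the other genes fell around it.

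**Figure D3:**
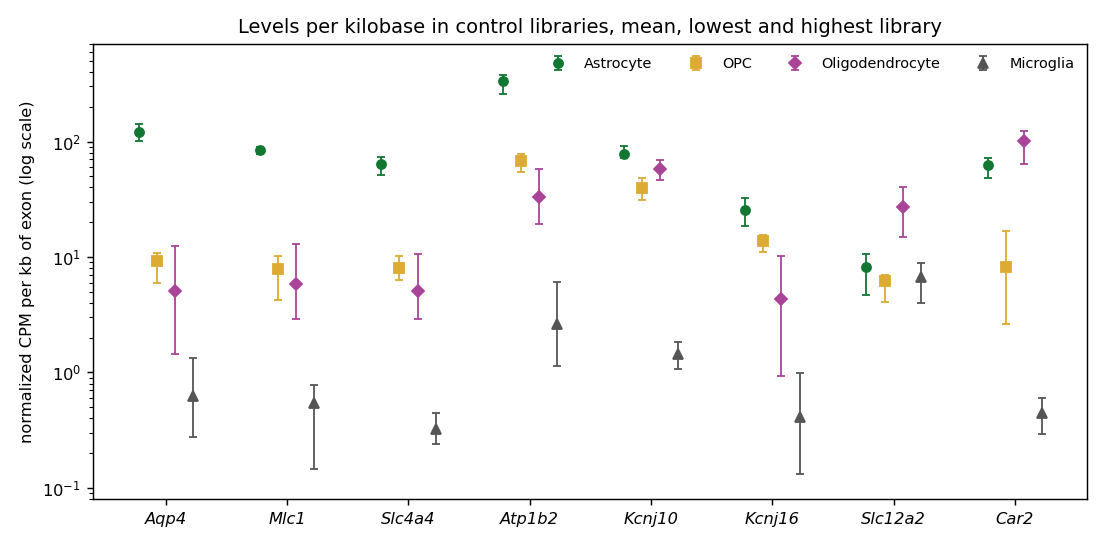
Control mean of each gene in CPM per kilobase of exonic length, on a log axis, for the 4 cell types, with bars from the lowest to the highest library. Atp1b2 leads in astrocytes (332) and OPCs (67.5), Car2 in oligodendrocytes (101) and Slc12a2 in microglia (6.76).

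Relatives of these genes, in 8 lists of 70 genes of which 65 passed the joint filter, did not follow a single pattern. In controls 20 were higher and 17 lower in astrocytes than in OPCs, 21 higher and 26 lower than in oligodendrocytes, and 32 higher and 14 lower than in microglia, against the shares of all genes given above. The endfoot anchoring complex, which holds AQP4 at the vessel wall, leaned most to astrocytes. Of its 6 genes, 5 were higher than in OPCs, among them Utrn, Dtna, Dmd and Sntb1, 6 higher than in oligodendrocytes and 5 higher than in microglia, with none lower. Dag1, which encodes dystroglycan, had 290 ± 33.8 CPM in astrocytes and 256 ± 17.3 in OPCs against 78.8 ± 13.5 in oligodendrocytes.

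The other inward rectifiers were not astrocyte genes. Of 9, none was higher and 1 lower in astrocytes than in OPCs, and 6 (Kcnj2, Kcnj3, Kcnj6, Kcnj9, Kcnj11 and Kcnj12) were lower than in oligodendrocytes, whose libraries held 568 to 3009 CPM of neuron markers against 115 to 340 in astrocytes. Their part in that difference was not tested. Kcnj3, the highest of the list per kilobase in astrocytes, had 5.44 CPM there and 24.8 in oligodendrocytes. Of 9 other sodium pump genes, 3 were higher and 5 lower in astrocytes than in OPCs. The pump regulator Fxyd1 was higher in control astrocytes than in each of the 3 other cell types.

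Of 9 further bicarbonate transport genes 2 were higher and 3 lower in astrocytes than in OPCs. Of 11 further carbonic anhydrases 3 were higher and 1 lower than in OPCs, and 2 higher and 5 lower than in oligodendrocytes, and Car11 was at 18.7, 34.5 and 45.1 CPM in astrocytes, OPCs and oligodendrocytes. Of 11 cation-chloride cotransport genes, the family of Slc12a2 and its kinases, 4 were higher and 5 lower than in oligodendrocytes. The kinase gene Wnk1, which acts upstream of NKCC1, was at 517 ± 53.0 CPM in astrocytes, 314 ± 37.4 in OPCs, 1445 ± 93.5 in oligodendrocytes and 1018 ± 150 in microglia. Among genes of volume regulation and MLC1 partners, Hepacam and Clcn2 were higher in control astrocytes than in each other cell type, and in Rag2-/- mice Hepacam was, while Clcn2 did not pass against oligodendrocytes. Hepacam, whose protein holds MLC1 at the membrane and was the antibody target of the astrocyte plate, had 518 ± 55.9 CPM in astrocytes, 186 ± 26.4 in OPCs and 214 ± 49.9 in oligodendrocytes. Of 7 other aquaporins only 3 passed the filter, Aqp5, Aqp9 and Aqp11, and Aqp11 had 19.1 CPM in astrocytes.

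Across all 43 libraries, which share mice and fall into 4 cell types, the genes nearest to each of the 8 in log2 CPM were found by Pearson correlation, as a description. Slc4a4 ran closest to Aldoc (0.992), Slc1a2 (0.990) and Slc6a11 (0.988), Atp1b2 to Sparcl1 (0.994), Scg3 (0.992) and Plpp3 (0.990), and Mlc1 to Aldoc (0.981), Prex2 (0.977) and Clu (0.976). Aqp4 ran closest to Id4 (0.985) and Fgfr3 (0.985). Kcnj10, present in 3 cell types, was nearest to Phyhipl (0.995), Fam171b (0.992) and S100b (0.991), and Kcnj16 to Sdc2 (0.965), Nhsl1 (0.963) and Fads2 (0.962). Car2 was nearest to Il33 (0.990), Fgfr2 (0.987) and Efhd1 (0.986), and Slc12a2 to Rtn4 (0.947), Kif13b (0.944) and Otud7b (0.941). Within the 8, Atp1b2 and Slc4a4 were the closest pair (0.986), and Slc12a2 was the farthest from the rest, at -0.09 to 0.56.

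None of the 8 genes passed the test between Rag2-/- and control mice in any cell type with the filter on low counts. Fits without the filter are given below. Sex and genotype were the terms of 1 fit per cell type, and the 8 genes passed the filter in all 4 fits. Of all genes tested 0.00679% (1 of 14725) passed for genotype in astrocytes, 0.00592% (1 of 16882) in OPCs, 0.00667% (1 of 15003) in microglia and 0.0% (0 of 13802) in oligodendrocytes. At an unadjusted p under 0.05 these counts were 423, 679, 435 and 467, and DESeq2 called 1, 5, 3 and 206. DESeq2 called none of the 8 in any cell type, and control and Rag2-/- libraries overlapped for each of the 8 in each cell type. The share of all genes with such overlap is not given here, so the overlap cannot be called particular to the 8.

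In astrocytes the levels of both genotypes lay close together. Aqp4 was at 800 ± 98.9 CPM in controls and 824 ± 112 in Rag2-/- mice (652, 816 and 964), Slc4a4 at 879 ± 120 and 904 ± 97.7 (753, 921 and 1011), and Kcnj10 at 423 ± 38.4 and 436 ± 23.4 (405, 443 and 464). Fitted log2 differences of the 8 genes ran from -0.14 for Mlc1 (SE 0.098), at 348 ± 21 against 322 ± 40.5 CPM, to 0.04 for Atp1b2 and Kcnj16. Their median was 0.02 and that of all genes 0.00.

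In OPCs Aqp4, Mlc1, Slc4a4 and Atp1b2 had unadjusted p under 0.05, and none passed adjustment. Aqp4 was at 158, 109, 48.8, 95.7 and 86.3 CPM in the Rag2-/- libraries of pairs 1, 2, 3, 4 and 6, against 38.6 to 71.2 in controls. All but pair 3 lay above every control. Mlc1 was at 74.9, 49.3, 34.7, 63.3 and 32.1 CPM in the same libraries against 17.4 to 41.7, and Slc4a4 at 253, 180, 80.5, 156 and 166 against 85.7 to 139. Atp1b2 was at 595, 582, 456, 605 and 578 CPM, against 366 to 524, and higher in the Rag2-/- mouse of 5 of 5 pairs. Aqp4 and Slc4a4 were higher in 4 of 5 pairs and Mlc1 in 3 of 5. The share of all genes higher in as many pairs is not given here. Pair 3 lay within the control range or, for Slc4a4, below it, and pair 1 was the highest for Aqp4, Mlc1 and Slc4a4. The fitted log2 differences were 0.73 for Aqp4 (SE 0.24), 0.66 for Mlc1 (SE 0.24), 0.59 for Slc4a4 (SE 0.22) and 0.29 for Atp1b2 (SE 0.12), each with an adjusted p of 0.9998. Car2 (0.49, SE 0.42), Kcnj16 (0.23, SE 0.16), Kcnj10 (0.06, SE 0.13) and Slc12a2 (-0.14, SE 0.15) had unadjusted p over 0.05. The median of the 8 was 0.39 and that of all genes -0.01.

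The astrocyte panel, too, was above every control in the Rag2-/- OPC libraries other than that of pair 3. It summed to 6125, 4274, 2658, 4221 and 3362 CPM in the Rag2-/- OPC libraries of pairs 1, 2, 3, 4 and 6, and to 2305 to 3304 in controls. The same order of libraries, pair 1 highest and pair 3 lowest, held for Aqp4 and the panel. The group means of 4128 ± 1301 and 2883 ± 356 differed by 0.52 on the log2 scale, with an exact permutation p of 0.0476 that was 0.762 after adjustment over 16 tests of panels, none of which passed. In the pair 1 Rag2-/- library endothelial markers were also at their highest, 109 CPM against 22.7 to 63.1 in controls, as were mural and fibroblast markers, 375 CPM against 113 to 289. The OPC panel was at its lowest there, 2638 CPM against 3089 to 4334 in controls. Neuron markers and the microglia panel were also lower in that library than in any other OPC library. Its oligodendrocyte panel lay within the control range, so not every list of other cell types rose there. With the log2 sum of the astrocyte panel as a covariate the fitted differences were 0.21 for Aqp4, 0.27 for Mlc1, 0.08 for Slc4a4 and 0.17 for Atp1b2. The panel itself had the higher mean in Rag2-/- mice, so this fit cannot tell a genotype effect from astrocyte RNA. Without the pair 1 Rag2-/- library the fitted differences were 0.46, 0.51 and 0.31 for Aqp4, Mlc1 and Slc4a4. The cause of the higher values was not tested. With no filter on low counts 3 of the 8 passed, Aqp4 (adjusted p = 0.000485), Slc4a4 (adjusted p = 0.00518) and Mlc1 (adjusted p = 0.0292), among 90 of 33850 genes, while with the littermate pair as a block the values were 0.53, 0.52 and 0.46 and the adjusted p of each was 0.991.

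**Figure D4:**
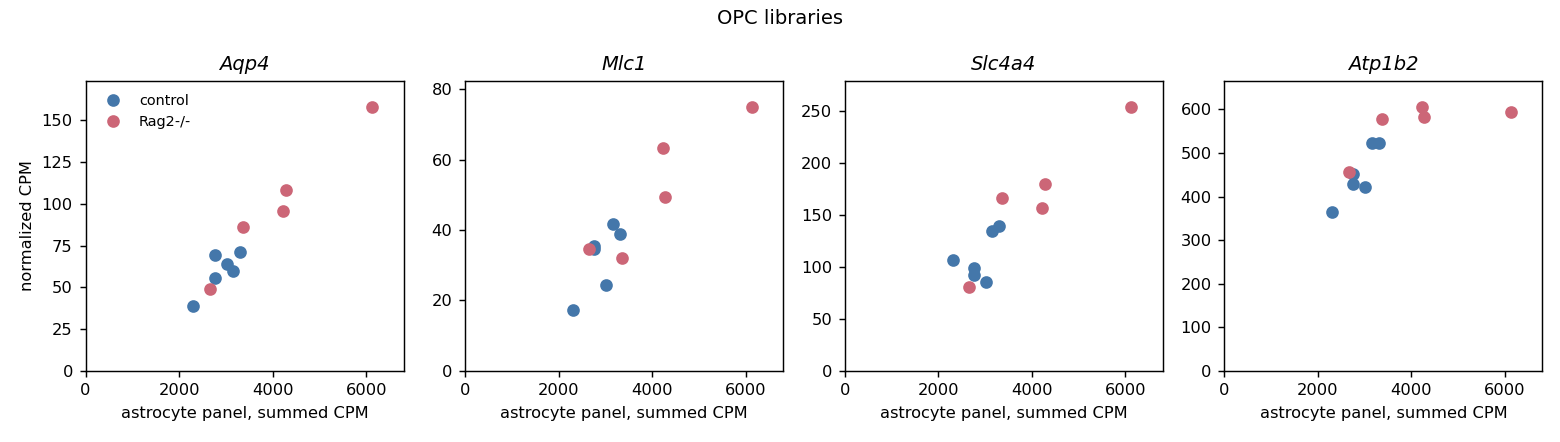
Summed CPM of the astrocyte panel, horizontally, against the CPM of Aqp4, Mlc1, Slc4a4 and Atp1b2, vertically, in the 11 OPC libraries, with controls and Rag2-/- libraries marked apart. The pair 1 Rag2-/- library, at 6125 CPM of the panel, is the highest for Aqp4 (158), Mlc1 (74.9) and Slc4a4 (253).

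In oligodendrocytes the genotypes overlapped for each gene, and the spread among the 4 libraries of a group was wide. Kcnj10 was at 316 ± 60.1 CPM in controls and 322 ± 25.5 in Rag2-/- mice (340, 334, 330 and 284 in pairs 1, 3, 5 and 6). Slc12a2 was at 345 ± 137 and 411 ± 35.1 (402, 369, 420 and 453), and Car2 at 444 ± 111 and 430 ± 62.3 (448, 510, 378 and 383). The fitted differences ran from -0.78 for Aqp4 (SE 0.99), whose Rag2-/- libraries held 11.3, 12.0, 56.7 and 31.4 CPM, to 0.35 for Slc12a2 (SE 0.29). Their median was -0.19. With 4 libraries a group and SEs of this size, a difference of the size fitted for Aqp4 was not detectable.

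In microglia 7 of the 8 genes were low, and Slc12a2 was at 85.9 ± 23.2 CPM in controls and 84.8 in Rag2-/- mice. The fitted differences ran from -0.15 for Mlc1 (SE 0.44) to 0.87 for Car2 (SE 0.39). Car2 was at 1.97 ± 0.559 CPM in controls (13 to 31 counts a library) and 3.69 ± 1.87 in Rag2-/- mice (13 to 77 counts), higher in 5 of 6 pairs, and its adjusted p was 0.999. The value was 0.47 without the Rag2-/- library of pair 4, which was the highest at 6.03 CPM. The median of the 8 was -0.04.

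**Figure D5:**
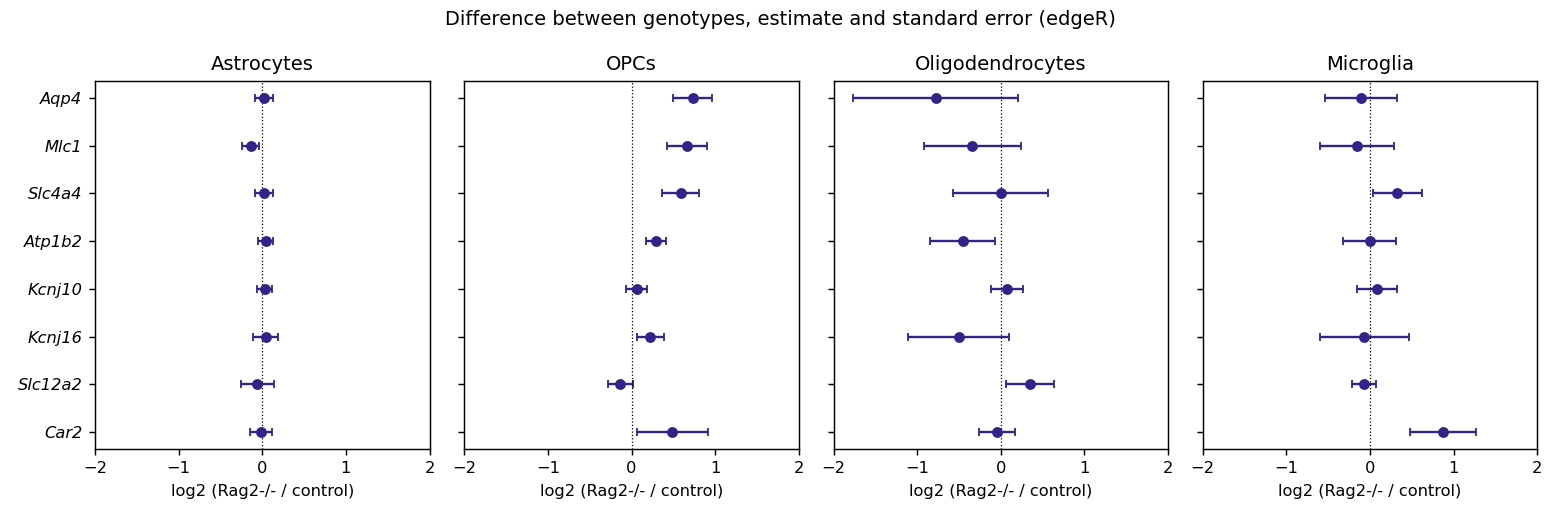
Fitted log2 difference between Rag2-/- and control libraries for the 8 genes in each cell type, with bars of 1 SE. Astrocyte values lie between -0.14 and 0.04, Aqp4 in OPCs is at 0.73, and none of the values passed the test after adjustment.

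A difference in genotype effect between cell types was tested directly, and none of the 8 genes passed. The interaction in the joint fit called 0.248% of all genes (53 of 21368), and the smallest adjusted p among the 8 was 0.691, for Car2. With no filter on low counts 2 of the 8 passed, Aqp4 (adjusted p = 0.0365) and Car2 (adjusted p = 0.0464), among 1011 genes.

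Sex was the other term, and none of the 8 genes passed for it, where the share of all genes that passed was 0.0407% in astrocytes, 0.0467% in microglia, 0.0362% in oligodendrocytes and 0.0296% in OPCs. The largest value was for Kcnj16 in oligodendrocytes, 2.10 higher in females (SE 0.61, adjusted p = 0.505). It rested on the female pair 5, at 56.2 CPM in the control and 60.1 in the Rag2-/- mouse, while the other 6 libraries, of which the pair 6 Rag2-/- mouse at 8.81 was also female, held 5.05 to 19. In Mlc1 the oligodendrocyte value was 1.33 (SE 0.58, adjusted p = 0.593), and in Slc12a2 the microglia value was 0.33 (SE 0.15, adjusted p = 1.00).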

How the data were processed

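The authors caught cells by immunopanning, amplified cDNA (Nugen Ovation V2), sequenced read pairs on a NovaSeq, aligned them to GRCm39 with STAR 2.7.8a, and used HTSeq to assign them to Ensembl genes. The strand setting is not given in the sources used here. The deposited values are whole-number counts per gene without normalization, and pairs that met no gene, several genes or several places (33.5% to 52.0% of a library) stayed out of totals and tests. Libraries of 1 group were never alike within counting error (smallest chi-square per gene 7.45), and each is 1 sample.

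From the counts, edgeR 4.0.16 in R 4.3.3 gave quasi-likelihood tests, two-sided, with TMM, filterByExpr (minimum count 10, total 15) and Benjamini-Hochberg adjustment over all genes tested, at an adjusted p of 0.05. Each cell type was fitted with sex and genotype, as the study did, and all 43 libraries in 1 joint fit for cell types and the interaction. Panels were compared with exact permutation tests. Pairs were littermates, by the labels and the methods of the study. The mean correlation of deviations from group means was 0.111, 0.0889, 0.135 and 0.0865 within pairs in oligodendrocytes, OPCs, astrocytes and microglia, and -0.036, -0.0176, -0.0258 and -0.0176 between pairs. In the tests within 1 cell type, p-values measure the spread between mice. The main joint fit treated libraries of the same mouse as independent, so its p-values measure the spread between libraries. There the mouse entered only as a block in an alternative. Alternatives were other scalings, no filter, DESeq2 1.42.0, no sex term, a pair or mouse block, Rag2+/- controls only, a marker score covariate and each library left out. The tests were run first on simulated counts with known changes.

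The 8 genes, the lists and the alternatives were chosen with earlier results of these data known. Named besides the 8 are, of each related list, the gene highest per kilobase in control astrocytes and those given with its counts, the 3 genes most correlated with each of the 8, and markers through their lists. The results of 3 genes that this rule covers are not reported here. Lengths, starts and promoter sequences came from GENCODE M39 and the GRCm39 genome.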

Additional observations from a re-analysis of the deposited data

Results flagged for a closer look

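In 64 groups of 4 to 6 libraries, 1 for each gene, cell type and genotype, 7 held a library far from the others by a gap test that chance meets in about 1 of 20 groups. In oligodendrocytes, Kcnj16 was at 60.1 CPM in the Rag2-/- library of pair 5 against 8.68 to 10.8 in the others, Mlc1 at 52.8 CPM in the control of pair 5 against 11.9 to 16.7, and Slc4a4 at 145 CPM in the control of pair 6 against 39.9 to 49.2. Neuron markers summed to 2154, 2213 and 3009 CPM in these 3 libraries, and to 568 to 2184 in the other 5. In OPCs, Atp1b2 was at 456 CPM in the Rag2-/- library of pair 3 against 578 to 605, and Slc12a2 at 51.2 CPM in the control of pair 3 against 81.3 to 88.7. Slc12a2 was at 160 CPM in the Rag2-/- astrocytes of pair 3 against 65.6 to 96.3, in a library with 5772 CPM of the oligodendrocyte panel, where astrocyte libraries ranged from 3186 to 6054. Atp1b2 was at 40.7 CPM in the control microglia of pair 6 against 7.62 to 18.4. The part of the marker RNA in these values was not tested.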

How the results depend on the processing

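Of the cell type differences of the 8 genes recomputed in controls with another scaling, filter, tool or block, 273 kept their direction and call, 10 gained a call, 2 lost it and 3 turned, and in Rag2-/- mice these counts were 279, 2, 3 and 4. With 1 library left out, 2051 were kept, 7 gained a call and 6 lost it in controls, and 2057 were kept and 7 lost in Rag2-/- mice. With total gene counts as the scale, 8 genes in place of 5 differed between control OPCs and oligodendrocytes, Kcnj10 turned to 0.48 in controls and 0.50 in Rag2-/- mice, and the astrocyte panel between genotypes in astrocytes turned to -0.064. Slc12a2, which passed no contrast among astrocytes, OPCs and microglia, turned to 0.0075 between OPCs and microglia in controls, to -0.012 between astrocytes and OPCs and -0.11 between astrocytes and microglia in Rag2-/- mice, and without mitochondrial genes to 0.32 and 0.27 between OPCs and microglia in controls and Rag2-/- mice. With no filter, Kcnj16 between astrocytes and OPCs (0.72, adjusted p = 0.0140) and Car2 between astrocytes and oligodendrocytes (-0.54, adjusted p = 0.0431) also passed in Rag2-/- mice, 3 genes passed for genotype in OPCs, 1 for sex in oligodendrocytes (Kcnj16, 2.05, adjusted p = 0.0385) and 2 for the interaction (Aqp4, adjusted p = 0.0365, and Car2, adjusted p = 0.0464). Over all genes, no filter gave 14, 90, 30 and 9 genotype calls in oligodendrocytes, OPCs, astrocytes and microglia, 99, 72, 118 and 25 sex calls and 1011 interaction calls. DESeq2 gave 206, 5, 1 and 3 genotype calls, 422, 13, 19 and 11 sex calls and 445 interaction calls.

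Other reversals were of genotype differences that passed no test. With the marker score as a covariate Car2 and Kcnj10 in OPCs were -0.077 and -0.12 and Kcnj16 in astrocytes was -0.013, and with Rag2+/- controls only Aqp4 in oligodendrocytes was 0.19 and Mlc1 in microglia 0.21. With 1 library left out in turn, genotype differences ranged from -1.89 to 0.19 for Aqp4 and from -0.074 to 0.57 for Slc12a2 in oligodendrocytes, from -0.026 to 0.14 for Kcnj10 in OPCs, from -0.0026 to 0.078 for Atp1b2 and from -0.031 to 0.12 for Kcnj16 in astrocytes, and from -0.46 to 0.017 for Mlc1 in microglia. Of the differences not given in the report, Atp1b2 in microglia ran from -0.0023 to 0.62, Slc4a4 in oligodendrocytes from -0.0090 to 0.63 and Atp1b2 in oligodendrocytes from -0.46 to 0.030 over 7 alternatives, and Aqp4, Kcnj10 and Slc4a4 in astrocytes and Kcnj16 and Slc12a2 in microglia changed sign in 1 of 7. The astrocyte panel with 1 library left out ranged from -0.052 to 0.025 in microglia and from -0.25 to 0.26 in oligodendrocytes. The cause of these changes was not tested. With the pair or the mouse as a replicate block no gene of the 8 passed for genotype or interaction (5 interaction calls over all genes), and 2 cell type calls were lost, Kcnj10 between control astrocytes and oligodendrocytes (0.45, adjusted p = 0.0513) and between OPCs and oligodendrocytes in Rag2-/- mice (-0.47, adjusted p = 0.0663). Depth limits Car2, Mlc1 and Kcnj16 in microglia, where counts were low.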
